A study of Homo sapiens with 16 samples.

Results

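The longest genes of the human genome were followed through depletion of DNA topoisomerase I (Top1). Of 19333 genes in the deposited expression table, 331 lay on chromosomes 1 to 6, 8 to 18, 20 or 21 and spanned at least 400 kb from their first to their last annotated base, and these 331 are called giant genes here. The rule used position and span and no expression value, but it was set with earlier results of these data known. Their spans ran from 400 kb to 2169 kb with a median of 557 kb. By length, 192 spanned 400 to 600 kb, 101 spanned 600 to 1000 kb and 38 spanned over 1 Mb.

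The libraries were made from HEK293 cells, an immortalized line derived from human embryonic kidney. Cells of the Top1 KD group received 10 nM of a small interfering RNA against Top1, cells of the scramble group received a negative control RNA in its place, and both were collected on day 5. Total RNA was depleted of ribosomal RNA and sequenced from 2 libraries per group, and the submitters state that samples of the series differ in passage. Depletion by such an RNA is transient, and it was measured in a single cell line.

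Top1 nicks and reseals DNA, which lets torsion escape ahead of and behind a moving RNA polymerase II. A giant gene consists almost wholly of introns, so a polymerase travels for hours to finish one transcript, and supercoils can build up along the way. Genes of this length are often expressed in neurons, and several of them coincide with common fragile sites, regions that break when DNA replication is slowed.

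Recovered reads per library ranged from 14681774 to 18366226. Values are normalized counts, that is, reads divided by the size factor of their library, and they are not scaled for length unless a value per kb is named. The genes carry transcript identifiers that matched no name table used here (0 of 19333), so giant genes are described by position on hg19, and neither the level of TOP1 itself nor markers of the cell line were checked. All 697 genes of the table that lie wholly inside another gene had 0 reads in every library, among them 420 with hosts on the opposite strand only. A count for a giant gene can therefore hold reads from introns as well as exons and from either strand, and these cannot be told apart here.

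Giant genes were on the whole higher after Top1 depletion. Of the 331, 302 had enough reads to be tested (2 or more libraries with a value of 10 or above), which is 91.2%, against 68.1% of the 15458 genes under 400 kb on the same chromosomes. The shorter genes include genes inside another gene, which all had 0 reads, and the filter does not scale counts for length. The median log2 fold change of the 302 giant genes, Top1 KD over scramble, was 0.24, with the middle 50% of genes between -0.16 and 0.52. The median was 0.00 over all 13086 tested genes and 0.01 over the 10534 tested shorter genes of the same chromosomes. A value above 0 was seen for 200 of 302 giant genes (66.2%). In bulk libraries, a change in the number of cells that express a gene and a change in RNA per cell cannot be told apart.

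Single genes were called at a Benjamini-Hochberg adjusted p under 0.05 in limma together with a change of at least 1.5-fold. By this rule 33 giant genes rose, or 10.9% of those tested, where 3.88% of all tested genes did. Only 8 fell, or 2.65%, where 4.26% of all tested genes did. Without the fold limit, 79 were higher (26.2%, against 7.17% of all tested genes) and 18 were lower (5.96%, against 7.63%). The separation of libraries gave a like picture without any model: both Top1 KD libraries lay above both scramble libraries in 141 giant genes (46.7%, against 28.8% of all tested genes), and below both in 55 (18.2%, against 29.0%). Genes of 200 to 400 kb on the same chromosomes had nearly the same shares, 46.0% above and 16.8% below. All 41 called giant genes were separated in this way. That adds little, because a call already needs a gap that is large beside the spread within groups. In either direction, 8.15% of all tested genes were called, and how many of those were separated was not counted. Of the 302 tested giant genes, 215 (71.2%) changed by less than 1.5-fold, a share that was not counted over all tested genes. The middle 50% of log2 fold changes lay between -0.16 and 0.52 in giant genes and between -0.30 and 0.28 in all tested genes. The counts of called giant genes depend on single libraries. There were 16 called higher and 2 lower without scramble replicate 1, 17 and 4 without scramble replicate 2, 15 and 10 without Top1 KD replicate 1 and 51 and 13 without Top1 KD replicate 2, where 1.34%, 1.73%, 1.70% and 4.42% of all tested genes were called higher and 1.08%, 1.51%, 2.67% and 5.73% lower.

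**Figure D1:**
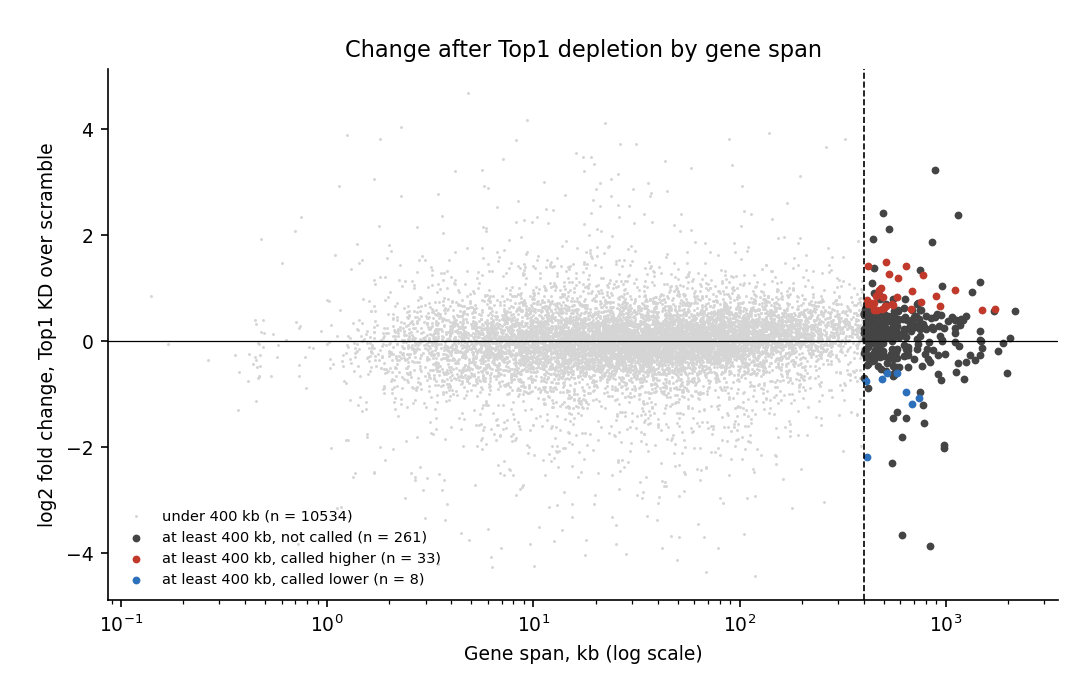
Log2 fold change of Top1 KD over scramble (y axis) against gene span in kb on a log scale (x axis) for each tested gene of the 19 chromosomes, 1 point per gene, with the dashed line at 400 kb. The 302 giant genes hold 33 called higher (red) and 8 called lower (blue), and the largest differences among the uncalled ones come from genes with few reads.

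The widest swings in that plot belong to weakly read genes. A giant gene at chr14:47309295-48144157 (835 kb), picked out after its values were seen, had 11.7 and 15.8 normalized counts in the scramble libraries and 0 in both Top1 KD libraries, and its limma adjusted p was 0.198. An 833 kb giant gene with 0 reads in every library lies inside it on the same strand. How reads of the shared stretch were counted is not given. At counts as low as those of the 835 kb gene a few reads decide the value, and no fold is given for it.

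Among giant genes whose mean over the 4 libraries reached 100 normalized counts, the largest rise was that of ENST00000328041 on the plus strand of chromosome 20 (chr20:19193290-19703581, 510 kb). It had 84.3 and 73.0 normalized counts in scramble replicates 1 and 2, and 248 and 199 in Top1 KD replicates 1 and 2. The 2 groups were far apart, and the rise was 2.81-fold (log2 fold change 1.49, SE 0.33, limma adjusted p = 0.00751). ENST00000458420, on the plus strand of chromosome 3 (chr3:139654027-140296239, 642 kb), read 84.3 and 97.7 in scramble and 285 and 212 in Top1 KD. Its groups did not overlap either, and it rose 2.69-fold (log2 fold change 1.43, SE 0.32, limma adjusted p = 0.00741). Both had few reads for their size, with 0.154 and 0.142 normalized counts per kb of span in scramble. With 1 library left out, the log2 fold change of the chromosome 20 gene ran from 1.33 to 1.65. That of the chromosome 3 gene ran from 1.22 to 1.64. Neither could change direction, because the groups did not overlap. For both genes the limma adjusted p rose above 0.05 without either scramble library and without Top1 KD replicate 1.

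Other rises came from more strongly read genes and were chosen for mention after their values were seen. A giant gene at chr4:86396267-86923823 (528 kb) had 493 and 522 normalized counts in scramble and 1376 and 1073 in Top1 KD. The spread within each group was small beside the gap between them (log2 fold change 1.26, SE 0.16, limma adjusted p = 0.000181). At chr11:19372271-20143144 (771 kb), counts were 369 and 284 in scramble and 855 and 688 in Top1 KD, a rise of 2.36-fold with a limma adjusted p of 0.000831. The called gene with the most reads, at chr3:96533430-97468085 (935 kb), went from 4788 and 5124 to 7773 and 7841 normalized counts, a rise of 1.58-fold (limma adjusted p = 0.000332). Here the Top1 KD libraries were closer to each other than the scramble libraries were.

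Over all 33 giant genes that rose, log2 fold changes lay between 0.59 and 1.49 with a median of 0.75. Scramble means ran from 65.5 to 4956 normalized counts with a median of 663. A change of at least 2-fold was reached by 7 of them (2.32% of tested giant genes), where 1.05% of all tested genes were called higher at that limit. They were spread over 15 of the 19 chromosomes. In 28 of the 33, Top1 KD replicate 1 was higher than Top1 KD replicate 2, and in 19 of the 33 scramble replicate 1 was higher than scramble replicate 2. Over all 302 tested giant genes, these counts were 187 and 154.

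The largest fall was that of ENST00000265342, on the minus strand of chromosome 5 (chr5:132532147-132948255, 416 kb). It had 243 and 182 normalized counts in scramble and 58.4 and 34.9 in Top1 KD, with every Top1 KD value far under every scramble value. The log2 fold change was -2.19 (SE 0.40, limma adjusted p = 0.00226), or 4.58-fold lower, and the adjusted p was 0.1004 without scramble replicate 1. ENST00000360469 on the plus strand of chromosome 20 (chr20:59827482-60515673, 688 kb) went from 316 and 349 to 179 and 119 normalized counts. It fell by 1.18 on the log2 scale (SE 0.28, limma adjusted p = 0.00976). Its adjusted p was 0.107 without scramble replicate 1, 0.147 without scramble replicate 2 and 0.0514 without Top1 KD replicate 2.

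The 6 further falls, all listed because they are so few, came from genes with more reads. At chr13:96743093-97485671 (743 kb) counts were 2092 and 2125 in scramble and 1007 and 995 in Top1 KD. This gene had the lowest adjusted p of all called giant genes (log2 fold change -1.07, SE 0.12, limma adjusted p = 7.63e-05), and replicates of each group were nearly equal. At chr12:2162729-2800459 (638 kb) counts were 1344 and 875 in scramble and 611 and 509 in Top1 KD (log2 fold change -0.96), with scramble libraries that lay well apart from each other. The remaining 4 had log2 fold changes of -0.74 on chromosome 6 (chr6:118228689-118638839), -0.71 on chromosome 8 (chr8:69242957-69730796), -0.61 on chromosome 3 (chr3:120626919-121143608) and -0.60 on chromosome 1 (chr1:240938815-241520530). The genes that fell lay on 8 different chromosomes, and 5 of the 8 spanned 400 to 600 kb, as did 175 of all 302 tested giant genes.

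**Figure D2:**
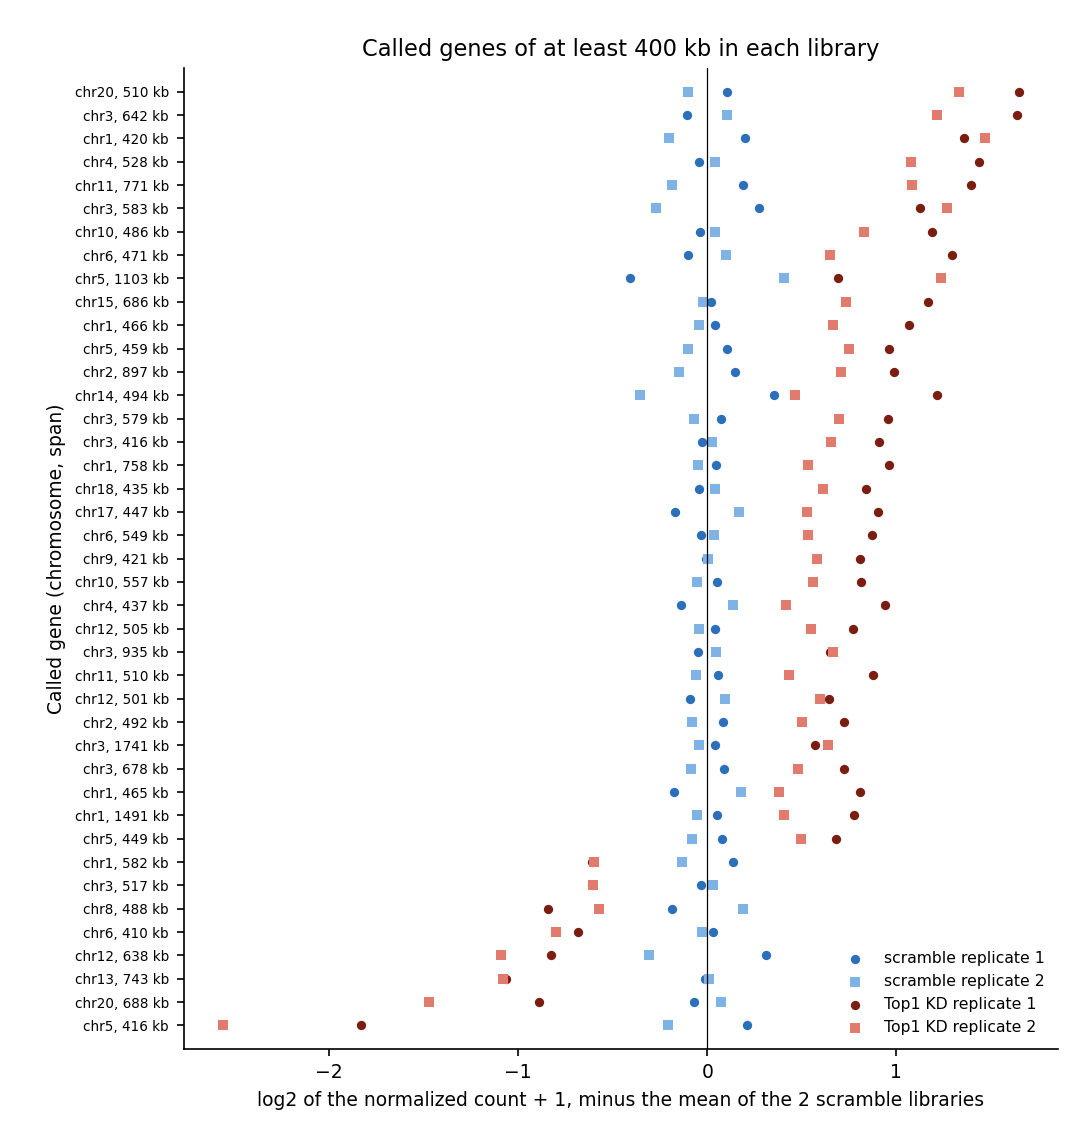
Each row is 1 of the 41 called giant genes, named by chromosome and span, and each point is 1 library, plotted as log2 of the normalized count plus 1 minus the mean of the scramble libraries (x axis). In every row both Top1 KD points (red) lie on one side of both scramble points (blue), and in 28 of the 33 upper rows Top1 KD replicate 1 lies farther right than replicate 2. Over all tested giant genes, Top1 KD replicate 1 was the higher in 61.9%.

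In shorter genes the change climbed with span, and among giant genes it did not climb further. The median log2 fold change was -0.05 in genes under 20 kb, -0.01 at 20 to 100 kb, 0.10 at 100 to 200 kb and 0.17 at 200 to 400 kb on the same chromosomes. It was 0.25 in giant genes of 400 to 600 kb, 0.24 at 600 to 1000 kb and 0.18 over 1 Mb. Spearman's rho of span with log2 fold change was 0.11 across the tested shorter genes and -0.08 across the 302 giant genes. These are descriptions across genes measured in the same 4 libraries, and genes are not independent replicates.

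Genes called higher made up 3.31%, 3.37%, 4.96% and 7.37% of the tested shorter genes in those 4 classes, then 13.1% of giant genes at 400 to 600 kb (23 of 175), 7.61% at 600 to 1000 kb (7 of 92) and 8.57% over 1 Mb (3 of 35). Genes called lower made up 4.75%, 3.75%, 3.38% and 2.40% of the shorter classes, then 2.86% (5 genes), 3.26% (3 genes) and 0% of the giant classes, so their share declined with span up to 400 kb and was not lower again until over 1 Mb. Over 1 Mb, limma called 0 genes lower, with 6 lower and 11 higher at an unadjusted p under 0.05. The edgeR and DESeq2 tests on the recovered reads also called 0 lower there. The differences between the giant classes were not tested.

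Of the 35 tested genes over 1 Mb, the largest called change lay on the minus strand at chr5:21750782-22853450 (1103 kb). Its counts were 668 and 1176 in scramble and 1434 and 2092 in Top1 KD. The scramble libraries differed from each other by more than scramble replicate 2 differed from Top1 KD replicate 1, and the log2 fold change of 0.97 (SE 0.22, limma adjusted p = 0.00764) ran from 0.56 to 1.37 when 1 library was left out.

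The other 2 called genes over 1 Mb rose less and were tighter. At chr3:75955846-77696661 (1741 kb) counts were 2854 and 2694 in scramble and 4115 and 4312 in Top1 KD (log2 fold change 0.60, limma adjusted p = 0.00112). At chr1:48998527-50489585 (1491 kb) counts were 666 and 619 in scramble and 1099 and 851 in Top1 KD (log2 fold change 0.59, limma adjusted p = 0.0227). The longest tested gene, at chr11:83168962-85338314 (2169 kb), had 367 and 410 in scramble and 564 and 586 in Top1 KD. Its groups did not overlap and its limma adjusted p was 0.0481, but at 1.48-fold it stayed under the fold limit.

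In the 600 to 1000 kb class, 7 genes rose and 3 fell. Beside the rises already given, they were at chr15:71389291-72075722 (log2 fold change 0.95), chr2:133429374-134326031 (0.85), chr1:245912865-246670519 (0.75) and chr3:187930721-188608460 (0.60). In the first of these, counts of 572 and 555 in scramble stood against 1267 and 938 in Top1 KD, so the Top1 KD libraries were the more variable ones.

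Each Top1 KD library was also set against each scramble library. The median log2 difference over the 302 giant genes was 0.30 for Top1 KD replicate 1 minus scramble replicate 1, 0.30 for Top1 KD replicate 1 minus scramble replicate 2, 0.17 for Top1 KD replicate 2 minus scramble replicate 1 and 0.22 for Top1 KD replicate 2 minus scramble replicate 2. All 4 pairs were above 0, and the pairs share libraries. Scramble replicate 2 minus scramble replicate 1 gave -0.01. Top1 KD replicate 2 minus Top1 KD replicate 1 gave -0.14, so the Top1 KD replicates differed from each other by a sizeable part of the difference between groups. Top1 KD replicate 1 was the higher of the Top1 KD libraries in 187 of 302 giant genes (61.9%) and in 49.9% of all tested genes. This difference between replicates also varied with span in shorter genes, with medians of 0.09, -0.01, -0.09 and -0.12 from the shortest class to 200 to 400 kb. Its part in the difference between groups was not tested.

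**Figure D3:**
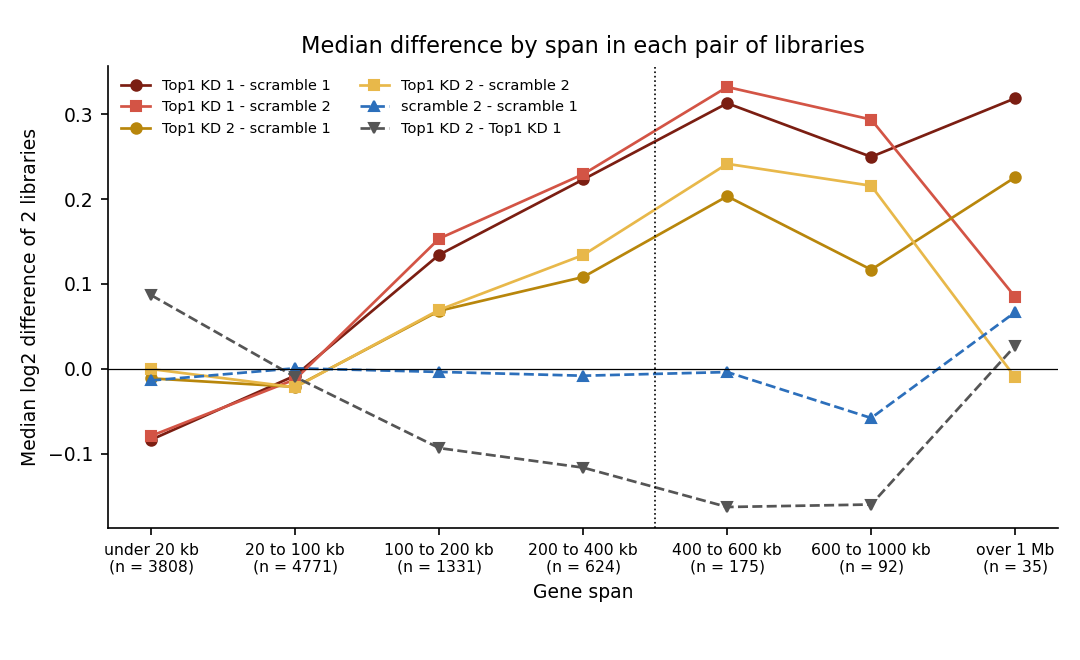
Median log2 difference (y axis) of each pair of libraries for tested genes by span (x axis, n below each class). Solid lines pair a Top1 KD with a scramble library and dashed lines pair replicates, and the dotted line marks 400 kb. All solid lines lie above 0 from 100 kb to 1000 kb, and over 1 Mb they spread from -0.01 to 0.32.

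Giant genes at least 1.5-fold apart were also counted in single pairs, each share followed by that of all tested genes. For Top1 KD replicate 1 minus scramble replicate 1, 76 were higher (25.2%, against 14.3%) and 35 lower (11.6%, against 15.5%). For Top1 KD replicate 1 minus scramble replicate 2 there were 82 higher (27.2%, against 13.7%) and 34 lower (11.3%, against 15.2%). With Top1 KD replicate 2, 65 were higher (21.5%, against 12.8%) and 31 lower (10.3%, against 13.4%) than scramble replicate 1. The smallest excess was that of Top1 KD replicate 2 minus scramble replicate 2, with 43 higher (14.2%, against 11.3%) and 30 lower (9.93%, against 12.8%). Between scramble replicates 15 were higher (4.97%, against 6.87%) and 13 lower (4.30%, against 6.91%). Between Top1 KD replicates 32 were higher (10.6%, against 9.88%) and 25 lower (8.28%, against 8.63%).

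By length, all 4 pairs gave a positive median at 400 to 600 kb, between 0.20 and 0.33, and at 600 to 1000 kb, between 0.12 and 0.29. The 35 genes over 1 Mb did not hold together in this way. Their median was 0.32 and 0.23 against scramble replicate 1, but 0.08 and -0.01 against scramble replicate 2, in the order Top1 KD replicate 1 and 2. The scramble libraries differed by a median of 0.07 in these genes, and the median of the class was 0.04 without scramble replicate 1 and 0.33 without scramble replicate 2.

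Giant genes were next divided by their level in scramble cells. Of the tested giant genes, 143 (47.4%) had a scramble mean of at least 1000 normalized counts, against 33.7% of the tested shorter genes. These 143 held 14 called higher (9.79%) and 5 called lower (3.497%), where 2.23% and 3.66% of shorter genes at that level were called, and their median log2 fold change was 0.24 against -0.02. The 94 giant genes at 100 to 1000 held 16 called higher (17.02%) and 3 called lower (3.19%), where 5.96% and 5.75% of shorter genes were called, with medians of 0.28 and 0.03. In both classes a larger share of giant genes than of shorter genes was called higher. The share called lower was close to that of shorter genes at 1000 or more and smaller at 100 to 1000, and these differences were not tested. Shorter genes of every span under 400 kb are pooled here. Those of 200 to 400 kb, with 7.37% called higher over all levels, were not divided by level.

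At lower levels the picture was thinner. The 55 giant genes at 10 to 100 held 3 called higher (5.45%, against 1.51% of shorter genes), and their median was -0.00 against -0.08, with a range from -0.13 to 0.23 when 1 library was left out. Limma called 0 of the 55 lower (0.756% of shorter genes at that level were), with 3 at an unadjusted p under 0.05, 0 called by edgeR and 1 by DESeq2. The 10 giant genes under 10 could pass the filter only by being higher in other libraries, so their median of 1.63 follows from the filter. Limma called 0 of these 10 in either direction, where 2.25% of shorter genes at that level were called higher and 0% lower, with 0 at an unadjusted p under 0.05 and 0 called by edgeR or DESeq2. Among the tested giant genes, 3 passed the filter through the Top1 KD libraries alone and 2 through the scramble libraries alone.

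**Figure D4:**
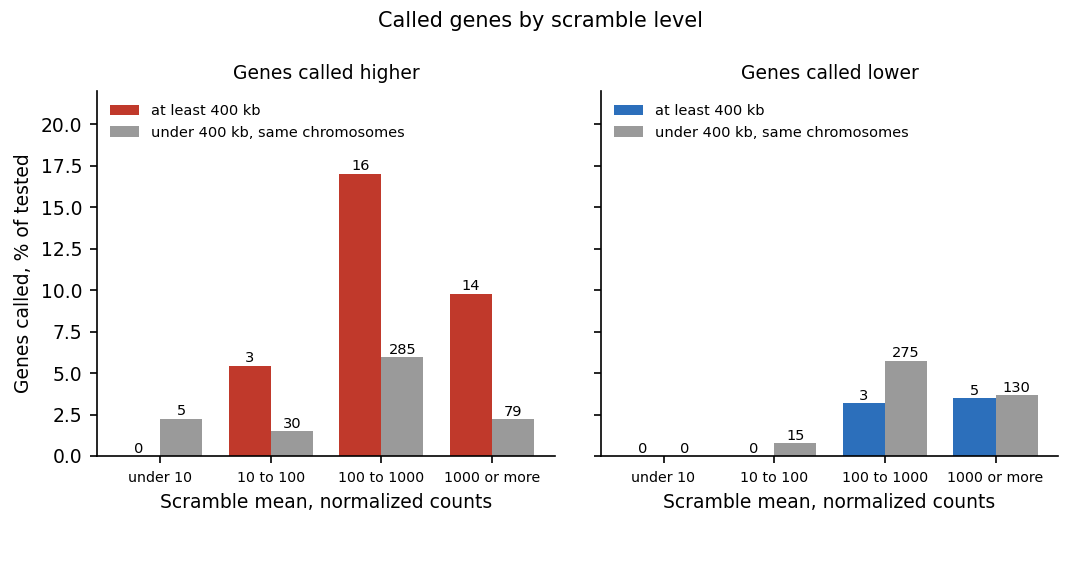
Percent of tested genes called higher (left, red) and called lower (right, blue) by mean scramble normalized count (x axis), for giant genes and, in grey, for genes under 400 kb on the same chromosomes, with the number of genes above each bar. The share called higher was larger in giant than in shorter genes in the classes from 10 counts up, at 5.45%, 17.02% and 9.79%.

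Level and change both rest on the scramble values, so the level was also taken from one scramble library and the change from the other. Giant genes placed at 100 to 1000 by scramble replicate 1 had a median change against scramble replicate 2 of 0.34, and with the libraries exchanged it was 0.28. At 1000 or more these medians were 0.25 and 0.23. At 10 to 100 they were -0.13 and 0.06, on both sides of 0. Shorter genes placed in the same way gave 0.03 and 0.03 at 100 to 1000, and -0.01 and -0.01 at 1000 or more.

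Crossing both classes, the giant genes of 400 to 600 kb had medians of 0.31 at 100 to 1000 counts (56 genes) and 0.23 at 1000 or more (85 genes). Those of 600 to 1000 kb had 0.24 (26 genes) and 0.28 (41 genes). Over 1 Mb the median was 0.28 in the 12 genes at 100 to 1000 but 0.03 in the 17 genes at 1000 or more. In the 20 genes of 600 to 1000 kb at 10 to 100 counts it was -0.33.

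None of the 3 most strongly read giant genes was called. The giant gene with the highest scramble level, at chr3:59735036-61237124 (1502 kb), had 10150 and 10351 normalized counts in scramble and 10151 and 8623 in Top1 KD. Its groups overlapped (log2 fold change -0.13, limma adjusted p = 0.389). The next, at chr13:93879095-95059655 (1181 kb), had 9027 and 9231 in scramble and 12158 and 12390 in Top1 KD. Its groups lay well apart (limma adjusted p = 0.00403), and the change of 1.34-fold stayed under the fold limit. The gene ranked after it, at chr1:39549804-39952652 (403 kb), had 8596 and 8573 in scramble and 9564 and 9473 in Top1 KD (1.11-fold, limma adjusted p = 0.269).

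Per kb of span, giant genes were sparsely read. Their median in scramble was 1.34 normalized counts per kb, with the middle 50% between 0.226 and 3.41 and a highest value of 21.3, against a median of 15.5 in tested shorter genes. Of the 159 giant genes at 1 to 10 per kb, 19 (11.9%) rose and 6 (3.77%) fell by the call rule, where 5.29% and 3.59% of shorter genes at that density did. Of the 93 at 0.1 to 1 per kb, 14 (15.1%) rose and 2 (2.15%) fell, where 2.70% and 0.726% of shorter genes did. Set beside shorter genes of equal density, then, giant genes had no smaller share of falls. At equal density a giant gene has more reads in all than a shorter one, which bears on how many genes can pass the test. Of the 46 under 0.1 per kb, limma called 0 in either direction, with 1 in each direction at an unadjusted p under 0.05, 0 called by edgeR and 1 called lower by DESeq2. The 4 giant genes at 10 or more per kb had a median log2 fold change of 0.06.

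As a group, giant genes took up a larger share of the reads after Top1 depletion. All 331 together held 2.50% of the reads of scramble replicate 1 (Wilson 95% interval 2.49 to 2.51) and 2.49% of scramble replicate 2 (2.48 to 2.49). They held 3.10% of Top1 KD replicate 1 (3.09 to 3.10) and 2.77% of Top1 KD replicate 2 (2.77 to 2.78). The intervals cover counting error only. Both Top1 KD shares lay above both scramble shares, and the Top1 KD libraries differed from each other far more than the scramble libraries did. The difference of the means was 0.44 percentage points, and 0.28 to 0.60 when 1 library was left out. With 2 libraries per group, an exact two-sided permutation test cannot give a p under 0.333, and none is given.

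The shares were also summed by call, a split that the change itself decides. The 33 that rose held 0.241% and 0.240% of scramble reads and 0.442% and 0.377% of Top1 KD reads. The 8 that fell held 0.0653% and 0.0624% in scramble, and 0.0378% and 0.0361% in Top1 KD. The 290 that were not called went from 2.19% and 2.18% to 2.62% and 2.36%. The added share thus lay both in the 33 called genes and in genes that passed no call.

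**Figure D5:**
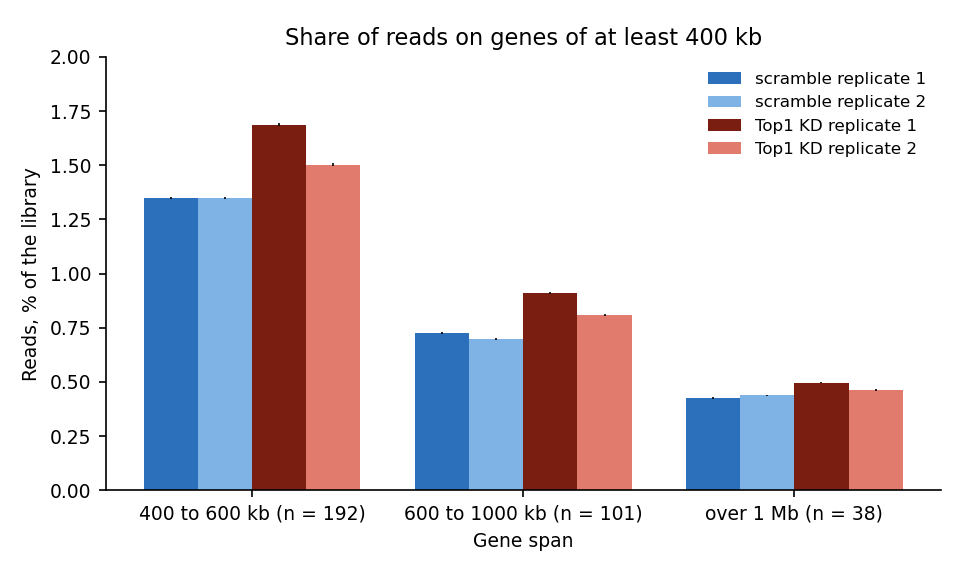
Percent of all reads of a library (y axis, from 0) that fell on the giant genes of each span class (x axis, n in parentheses), 1 bar per library with its Wilson 95% interval. The Top1 KD bars are higher than the scramble bars in each class, at 1.69% and 1.503% against 1.35% and 1.35% for 400 to 600 kb.

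In the other classes the shares were 0.724% and 0.699% in scramble against 0.911% and 0.808% in Top1 KD at 600 to 1000 kb, and 0.426% and 0.438% against 0.497% and 0.462% over 1 Mb. The classes stood in the same order in each library, and the gap between the groups was narrowest over 1 Mb.

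The higher level of giant genes was seen on most chromosomes. Their median log2 fold change was above that of the shorter genes of the same chromosome on 17 of 19 chromosomes, and on 12 of the 14 with at least 10 tested giant genes. It lay below them on chromosome 10 (0.01 against 0.02, 21 giant genes) and chromosome 13 (-0.09 against 0.06, 14 giant genes). Chromosome 3 held the most called rises, 7 of 32 tested giant genes, where 3.88% of all tested genes were called higher. The share called among shorter genes of that chromosome was not counted. The median was 0.22 in 163 tested giant genes on the plus strand and 0.27 in 139 on the minus strand. On the plus strand 18 (11.04%) were called higher and 6 (3.68%) lower, and on the minus strand 15 (10.8%) and 2 (1.44%), beside 3.88% and 4.26% of all tested genes. The difference between strands was not tested.

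Giant genes mostly stood alone on the chromosome. Of the 331, 286 overlapped no other gene of the table, 36 had at least 1 whole gene inside them (41 such genes in all, each with 0 reads), and 4 overlapped another giant gene. The 259 tested giant genes that overlapped no other gene held 27 called higher (10.4%) and 7 called lower, with a median log2 fold change of 0.25. The 35 with a gene inside held 3 called higher and 1 called lower, with a median of 0.05. They were longer, at a median of 730 kb against 551 kb for those without, and the difference between these groups was not tested. The median distance from a giant gene to the nearest gene outside it was 60.7 kb. Those with a neighbour within 100 kb had a median change of 0.23 (202 genes, 25 called higher and 6 lower), and those without had 0.28 (100 genes, 8 called higher and 2 lower). Over all tested genes 3.88% were called higher and 4.26% lower, and the difference between these groups was not tested.

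The limit of 400 kb cuts through a continuous range. The 3 tested genes just inside it spanned 400.451, 400.481 and 400.959 kb and had log2 fold changes of 0.49, 0.51 and -0.21. The 3 just outside spanned 398.242, 398.555 and 399.07 kb and had -0.27, 0.25 and 0.39. None of these 6 was called.

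The 29 giant genes that were not tested had means of at most 12.6 normalized counts. Of these, 27 had at least 1 read and 2 had no read in any library. Among the latter was the gene that lies inside the giant gene at chr14:47309295-48144157.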

How the data were processed

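Total RNA-seq of HEK293 cells was analysed in 4 of the 16 samples of the series, 2 scramble and 2 Top1 KD libraries. The R-loop maps and the polymerase ChIP-seq of the study were not analysed here. The authors trimmed single-end reads with fastq-mcf and mapped them with TopHat2 (2.0.5), keeping unique alignments. The submitters' processing notes also name HTSeq, DESeq2 and hg19, and the annotation release and counting mode are not given in the sources used here. The deposited values per library are a signal, read counts divided by DESeq2 size factors, and 0 value columns lacked a sample. The authors' fold changes, p-values and calls, deposited in the same table, were not used. Which of the study's siRNAs was used for these libraries is not given in the sources used here.

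All values (100%) were whole multiples of 1 read within 0.05 read, which returned 14681774 to 18366226 reads per library, and these depths set the precision. Genes with a value of 10 or above in 2 or more libraries were fitted with limma 3.58.1 (R 4.3.3) after log2 transformation with a pseudocount of 1, using limma-trend and group as the only term. Calls needed a Benjamini-Hochberg adjusted p under 0.05 over all 13086 tested genes and a change of at least 1.5-fold, and log2 fold changes on this scale understate changes of low genes. The fit was tested on simulated data. Shares of reads have Wilson 95% intervals. Alternatives were edgeR 4.0.16 and DESeq2 1.42.0 on the recovered reads, other scalings, filters, pseudocounts, fold and span limits, a replicate block, single library pairs, and each library left out. The alternative restricted to giant genes that overlap no other gene was chosen after the data were seen. The giant genes, their classes and the tests were chosen with earlier results of these data known.

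Genes given by identifier were, among called genes whose mean reached 100 normalized counts and whose groups were separate, the 2 with the largest rise and the 2 with the largest fall. By position came the longest tested gene, the 3 with the highest scramble level and the largest called change in each span class. Other genes were picked after their values were seen. No sequence is printed, because identifiers matched no table of the same build, and lists of named genes could not be used.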

Additional observations from a re-analysis of the deposited data

How the results depend on the processing

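Of the 33 giant genes called higher and 8 called lower, 28 and 6 were called under each scaling, count test, pseudocount, replicate block and the wider filter. Library-size scaling gave 40 and 6, TMM 31 and 9, edgeR 33 and 8 and DESeq2 32 and 9, and the median over all genes shifted by 0.03 (log2) or less with scaling. With the replicate number as a block the counts were 33 and 9 (all tested genes 3.95% and 4.34%). Same-numbered libraries did not deviate together (correlation 0.04 over 10308 genes), and they were not treated as pairs in the main fit. A correlation of this kind cannot show whether they were prepared as pairs. Limits on the change of 25% and 2-fold and no limit gave 77, 7 and 79 higher and 17, 3 and 18 lower. Of all tested genes, 7.05%, 1.05% and 7.17% were then called higher and 7.44%, 1.55% and 7.63% lower. Span limits of 300 kb and 500 kb gave 52 and 19 higher and 18 and 5 lower, of 508 and 190 tested. Over all tested genes 3.88% were called higher and 4.26% lower at the same fold limit. Leaving out 1 library gave 15 to 51 higher and 2 to 13 lower. Fewer libraries, with the lone one assumed to vary like the other group, are part of that construction. All 41 called genes kept their sign in each of these 4 fits, which had to be so because their groups did not overlap.

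The median log2 fold change of 0.24 ranged from 0.19 to 0.29 with 1 library left out, and was 0.17 for Top1 KD replicate 2 minus scramble replicate 1, -0.0086 between scramble and -0.14 between Top1 KD replicates (replicate 2 minus 1). At 400 to 600 kb, pairs with Top1 KD replicate 1 gave 0.31 and 0.33, scramble replicates -0.0038 and Top1 KD replicates -0.16. At 600 to 1000 kb, Top1 KD replicate 2 minus scramble replicate 1 gave 0.12, scramble replicates -0.058 and Top1 KD replicates -0.16. Over 1 Mb, 1 library left out gave 0.037 to 0.33, Top1 KD replicate 2 minus scramble replicate 2 gave -0.010 and Top1 KD replicates 0.027. At scramble levels of 10 to 100, a filter at a mean of 100 left 6 genes with a median of 1.11, which follows from that filter, 1 library left out gave -0.13 to 0.23, Top1 KD replicate 2 gave 0.25 and 0.21 against scramble replicates 1 and 2, and Top1 KD replicates 0.14. At 100 to 1000, Top1 KD replicate 2 minus scramble replicate 1 gave 0.18, scramble replicates -0.0014 and Top1 KD replicates -0.19. At 1000 or more these were 0.13, -0.0038 and -0.17. Why the replicates differ was not tested.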
